A study of Mus musculus with 12 samples.

Results

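The genes described here are 40 genes of cell proliferation, 17 of the start of S phase (S-phase genes) and 23 of mitosis (mitosis genes), out of 27179 mouse genes in the count table. They were chosen by symbol, all 40 had a row in the table, and all 40 passed the filter on low counts. They were counted in tibialis anterior (TA) muscles of 6 male wild-type C57BL/6N mice, obtained at 6 to 8 weeks of age. In each mouse, 1 leg was given 10 μg of empty pcDNA3 plasmid (Control muscles, n = 6) and the other leg 10 μg of a plasmid expressing full-length human *FRAIL1* lncRNA (*FRAIL1* muscles, n = 6). Both plasmids were introduced by electroporation after an injection of hyaluronidase, so Control muscles carry that treatment too, and the muscles were taken on day 7. The plasmid promoter is not restricted to a cell type, only cells that took up plasmid express it, and the human transcript is not among the mouse genes counted, so its own level was not measured here. The question these genes address is whether transcripts of dividing cells differ between *FRAIL1* and Control muscles.

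Adult muscle fibers are multinucleated cells that have left the cell cycle for good, so transcripts of DNA replication and mitosis in a muscle are usually those of other cells, such as satellite cells (the stem cells of muscle), macrophages, fibro-adipogenic progenitors and endothelial cells. As a cell enters S phase, E2F factors switch on the genes that load the replicative helicase and make deoxynucleotides. Later in the cycle the MuvB complex, with B-MYB and FOXM1, switches on the genes of chromosome condensation, the spindle and cell division, and in resting cells the same complex holds these genes off as part of DREAM. The DNA elements known for this are the E2F site, the CHR (cell cycle genes homology region) and the CCAAT box bound by NF-Y.

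The promoters of the 6 genes that passed the test between groups are shown here because they differ in these elements. Each line gives the 120 bases before the transcription start in the RefSeq table (GRCm38.p6), 5′ to 3′ on the strand of the gene, with matches to an E2F, CHR or CCAAT motif on either strand in capitals.
*Mcm6*, chr1:128359706-128359825, minus strand: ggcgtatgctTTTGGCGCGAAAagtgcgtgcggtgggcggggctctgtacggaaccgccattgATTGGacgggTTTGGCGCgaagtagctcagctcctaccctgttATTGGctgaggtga
*Rrm2*, chr12:24708134-24708253, plus strand: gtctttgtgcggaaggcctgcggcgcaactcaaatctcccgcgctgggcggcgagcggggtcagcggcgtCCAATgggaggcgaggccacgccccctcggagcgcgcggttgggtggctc
*Cdk1*, chr10:69352913-69353032, minus strand: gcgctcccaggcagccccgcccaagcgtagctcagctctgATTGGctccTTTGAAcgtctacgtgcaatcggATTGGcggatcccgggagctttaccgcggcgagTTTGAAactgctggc
*Kif11*, chr19:37376262-37376381, plus strand: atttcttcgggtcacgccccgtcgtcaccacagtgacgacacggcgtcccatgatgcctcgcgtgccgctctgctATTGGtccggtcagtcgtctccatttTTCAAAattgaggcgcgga
*Cenpf*, chr1:189688087-189688206, minus strand: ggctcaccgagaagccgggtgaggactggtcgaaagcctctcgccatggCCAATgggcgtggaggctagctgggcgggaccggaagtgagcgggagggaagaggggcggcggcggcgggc
*Aurka*, chr2:172370571-172370690, minus strand: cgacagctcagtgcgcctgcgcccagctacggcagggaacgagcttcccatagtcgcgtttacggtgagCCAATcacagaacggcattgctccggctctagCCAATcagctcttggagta
In the promoter of *Mcm6*, an S-phase gene, the capitals mark 3 E2F matches at -110, -106 and -47 (the first base of the match, counted back from the start), the first pair of which overlap, and CCAAT matches at -57 and -14. That of *Cdk1* held CHR matches at -71 and -15 and CCAAT matches at -80 and -48, and that of *Kif11* a CHR match at -19 and a CCAAT match at -45. In *Rrm2* and *Cenpf* the capitals mark a single CCAAT match, at -50 and at -71. *Aurka* held CCAAT matches at -51 and -19, and the starts used for *Aurka* and *Cenpf* lie inside the spans of the RefSeq genes.

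Over the window from 250 bases before to 50 bases after the start, RefSeq promoters were matched for 33 of the 40 genes, 14 S-phase and 19 mitosis genes. The CHR motif, searched as TTTGAA and TTCGAA on both strands, was in the promoters of 15 of 19 mitosis genes (78.9%), of 3 of 14 S-phase genes (21.4%), of 13.9% of the genes tested that had a promoter in the table and of 19.4% of all 27025 promoters. The E2F motif, searched as TTTGGCGC, TTTCCCGC, TTTGCCGC and TTTCGCGC, was in 5 of 14 S-phase genes (*Cdc6*, *Mcm3*, *Mcm5*, *Mcm6*, *Mcm7*; 35.7%), in 1 of 19 mitosis genes (*Cdk1*; 5.26%), in 3.89% of tested genes and in 2.32% of all promoters. CCAAT was in 89.5% of the mitosis genes, 64.3% of the S-phase genes, 38.1% of tested genes and 37.9% of all promoters. A match describes these letters only. Beyond the bases printed above, *Cenpf* had a CHR match at position 3 after the start and *Aurka* one at position 33. The 18 genes with a CHR match had a median log2 fold change between groups of 0.52 (range -0.41 to 0.85), against 0.34 (-0.08 to 0.82) in the 15 without one, both ranges holding called and uncalled genes. Of those 18 genes 15 were mitosis genes, so this split largely repeats that between mitosis and S-phase genes. The 6 genes with an E2F match had a median of 0.36, against 0.49 in the 27 without one. A link between motif and fold change was not tested.

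Total counts per muscle were 45018389 to 59309210 in Control and 44848322 to 60527385 in *FRAIL1* muscles, and the 40 genes held 22 to 2590 counts in a muscle. Levels are given as CPM, the counts scaled to library size with TMM factors. *FRAIL1* muscle 5 stood apart: on the first principal component of all genes tested it scored 59.5, the other *FRAIL1* muscles -5.92 to 25.8 and the Control muscles -25.9 to -11. Its TMM factor was 1.19, against 0.935 to 1.07 in the other 11. Fold changes of the 40 genes are therefore given with and without this muscle. The tissue label held: summed CPM of 12 muscle fiber markers was 186000 to 214000 in Control and 139000 to 197000 in *FRAIL1* muscles, while markers of T and B lymphocytes summed to 10.4 to 25.6 and those of neutrophils to 2.11 to 9.38 over all muscles. Muscles are numbered 1 to 6 in both groups, and same-numbered muscles were taken as the legs of 1 mouse. RNA came from whole muscle, so more cells of a type and more RNA per cell cannot be told apart.

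Proliferation genes were mostly at a higher level in *FRAIL1* than in Control muscles, with a larger median fold change for mitosis than for S-phase genes, but few passed the test one by one. *Rrm2*, *Mcm6*, *Cdk1*, *Kif11* and *Cenpf* rose by 1.36- to 1.81-fold, and *Aurka*, a mitotic kinase, fell to 0.752 of its Control level. The fitted log2 fold change was above 0 for 35 of 40 genes (87.5%), against 51.6% of all 15502 genes tested, with a median of 0.43 (1.35-fold), against 0.01 over all genes tested. With p-values of edgeR's quasi-likelihood test adjusted (Benjamini-Hochberg) over all genes tested, and a threshold of 0.05 (genes past it are called), 6 of the 40 genes were called (15%), against 6.28% of all genes tested. Of these, 5 were higher (12.5%, against 4.43% of all genes) and 1 was lower (2.5%, against 1.85%). At an unadjusted p under 0.05 there were 22 genes (against 27.7% of all genes), 21 higher (52.5%, against 15.2%) and 1 lower (against 12.5%). With the mouse as a block, 11 genes were called higher (27.5%, against 7.48% of all genes) and *Aurka* lower, the added genes being *Mcm3*, *Ccnb2*, *Bub1b*, *Birc5*, *Mki67* and *Top2a*. DESeq2 called 12 genes (30%, against 14.3% of all genes), DESeq2 with the block 16 (40%, against 18.5%) and limma voom with quality weights 5 (12.5%, against 11.8%), while without *FRAIL1* muscle 3 edgeR called 12 (30%, against 13.5%).

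**Figure D1:**
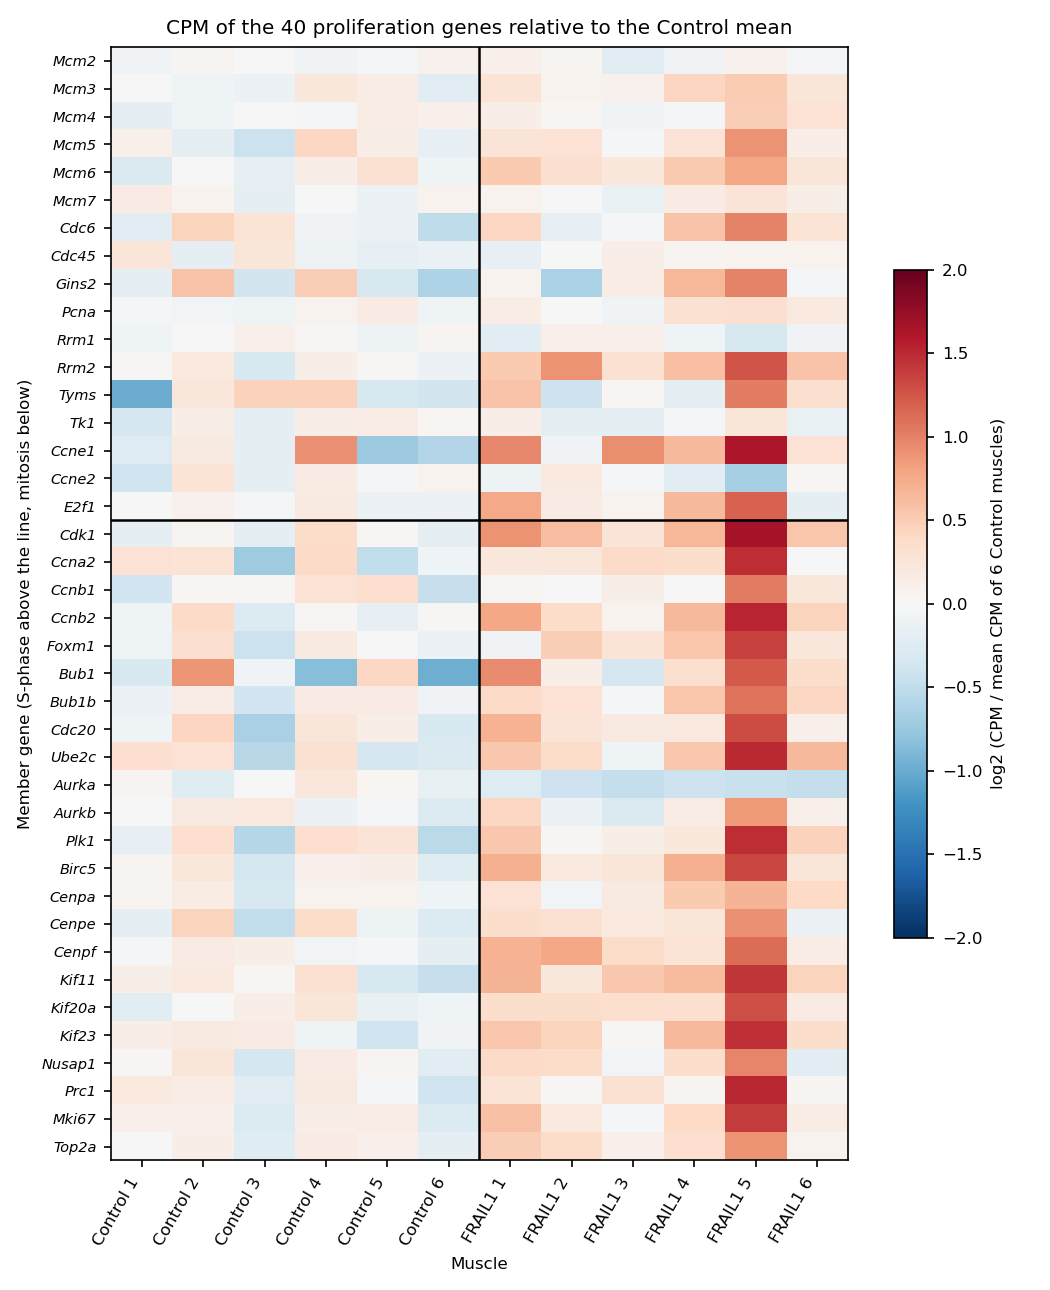
Heat map of the 40 genes (rows, S-phase genes above the line and mitosis genes below) in the 12 muscles (columns), coloured by log2 of the CPM over the mean CPM of the 6 Control muscles. *FRAIL1* muscle 5 is the reddest column, with the highest CPM of all 12 muscles for 35 of the 40 genes, and the *Aurka* row is blue in all 6 *FRAIL1* muscles.

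Among the 17 S-phase genes 2 were called (11.8%, against 6.28% of all genes tested), both higher, 6 had an unadjusted p under 0.05, all higher (35.3%, against 15.2% of all genes), and 13 had a fold change above 0, with a median log2 fold change of 0.27 (1.21-fold). Among the 23 mitosis genes 4 were called (17.4%), 3 higher and 1 lower, 16 had an unadjusted p under 0.05, 15 of them higher (65.2%), and 22 had a fold change above 0, with a median of 0.53 (1.44-fold). Without *FRAIL1* muscle 5 these medians were 0.11 and 0.30, the number of positive fold changes was again 13 and 22, and 5 of the 40 genes were called (12.5%, against 6.22% of all genes), 4 higher (10%, against 3.69%) and *Aurka* lower (against 2.52%), with *Cenpf* no longer among them. The difference between S-phase and mitosis genes was not tested.

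**Figure D2:**
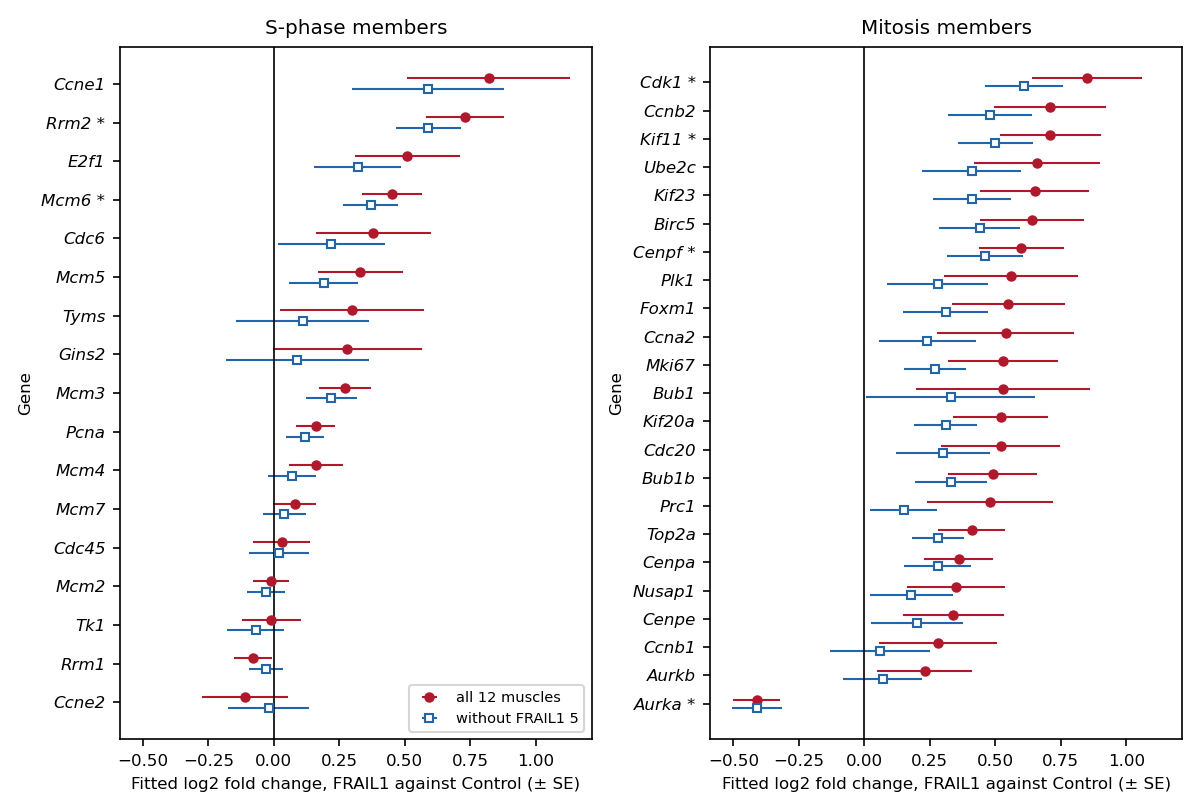
Fitted log2 fold change of *FRAIL1* against Control muscles with its standard error, for S-phase genes (left) and mitosis genes (right), over all 12 muscles (filled circles) and without *FRAIL1* muscle 5 (open squares), with an asterisk for an adjusted p under 0.05 over all 12. Mitosis genes other than *Aurka* lie to the right of 0 in both fits and move towards 0 without muscle 5, while *Aurka* stays at -0.41.

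*Rrm2*, the inducible small subunit of ribonucleotide reductase, the enzyme that makes deoxynucleotides, was the S-phase gene with the lowest adjusted p. It was at 3.72, 4.21, 2.98, 3.96, 3.71 and 3.4 CPM in Control muscles 1 to 6 and at 5.3, 6.87, 4.51, 5.56, 8.81 and 5.47 CPM in *FRAIL1* muscles 1 to 6. The lowest *FRAIL1* value exceeded the highest Control value. It was the only member with groups apart in this direction (1 of 40, against 3.12% of all genes tested, and also 1 of 40 without muscle 5, against 3.2%). The means were 3.67 ± 0.431 (SD, n = 6) and 6.09 ± 1.54 (SD, n = 6), a log2 fold change of 0.73 (SE 0.150; edgeR adjusted p = 0.0153), and 0.59 without *FRAIL1* muscle 5 (edgeR adjusted p = 0.0109). *Rrm2* was called under all 24 alternatives run, with adjusted p between 9.49e-06 and 0.0397.

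*Rrm1*, the large subunit of the same enzyme, was not called: it was at 38.8 to 44.7 CPM (median 41.6) in Control and 33.3 to 44.4 (median 39.2) in *FRAIL1* muscles (log2 fold change -0.08, SE 0.0726; edgeR adjusted p = 0.527, and -0.03 without *FRAIL1* muscle 5). Its lowest value was in *FRAIL1* muscle 5, where *Rrm2* was highest. The ratio of *Rrm2* to *Rrm1* within a muscle, in which gene length cancels between muscles, was 0.0888 ± 0.0134 (SD, n = 6) in Control and 0.158 ± 0.0553 (SD, n = 6) in *FRAIL1* muscles. The ranges met at 0.102, and *FRAIL1* muscle 5 had the highest ratio, 0.265. This ratio restates the estimates of *Rrm2* and *Rrm1* and adds no separate evidence. The other enzymes of thymidine supply were not called. *Tyms*, thymidylate synthase, had an imprecise log2 fold change of 0.30 (SE 0.275; edgeR adjusted p = 0.498), and 0.11 without *FRAIL1* muscle 5. *Tk1*, thymidine kinase, was at 4.72 to 6.63 CPM (median 6.33) in Control and 5.23 to 7.05 (median 5.67) in *FRAIL1* muscles (log2 fold change -0.01, SE 0.113; edgeR adjusted p = 0.951, and -0.07 without *FRAIL1* muscle 5).

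*Mcm6*, a subunit of the MCM2-7 helicase that opens DNA at replication origins, was at 6.49 to 9.73 CPM (median 7.69) in Control muscles and 9.11 to 13.5 (median 10.6) in *FRAIL1* muscles. The groups overlapped slightly, and each *FRAIL1* muscle was above its same-numbered Control muscle. The means were 7.89 ± 1.17 (SD, n = 6) and 10.8 ± 1.65 (SD, n = 6), a log2 fold change of 0.45 (SE 0.115; edgeR adjusted p = 0.0356), and 0.37 without *FRAIL1* muscle 5 (edgeR adjusted p = 0.0477). The call was lost when Control muscle 1, 2, 3, 4 or 6 or *FRAIL1* muscle 1 or 4 was left out, with adjusted p between 0.0522 and 0.0815.

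The subunits of that helicase were not raised alike. *Mcm2* was at 13.0 to 14.6 CPM in Control and 11.8 to 14.7 in *FRAIL1* muscles (log2 fold change -0.01, SE 0.0685; edgeR adjusted p = 0.971, and -0.03 without *FRAIL1* muscle 5), an estimate whose sign changed with the scaling and with single muscles. *Mcm3*, *Mcm4*, *Mcm5* and *Mcm7* had log2 fold changes of 0.27, 0.16, 0.33 and 0.08 (0.22, 0.07, 0.19 and 0.04 without *FRAIL1* muscle 5), none called, and *Mcm3*, higher in 6 of 6 same-numbered pairs, was called with the block (edgeR adjusted p = 0.0347). The ratio of *Mcm6* to *Mcm2* within a muscle was 0.578 ± 0.0938 (SD, n = 6) in Control and 0.789 ± 0.0964 (SD, n = 6) in *FRAIL1* muscles, with overlap (0.5 to 0.723 and 0.693 to 0.931). This pair holds the subunits with the highest and lowest estimates, so its ratio restates them and adds no separate evidence.

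The other genes of the replication fork were not called. *Pcna*, the sliding clamp of DNA polymerases and a usual marker of proliferation, was at 21.4 to 25.5 CPM (median 22.0) in Control and 21.7 to 28.3 (median 25.5) in *FRAIL1* muscles. It was higher in 6 of 6 same-numbered pairs, with a log2 fold change of 0.16 (SE 0.0744; edgeR adjusted p = 0.177, and 0.12 without *FRAIL1* muscle 5), although reads may be shared with the pseudogene *Pcna-ps2*, to which 51.4% of its transcript aligns with at least 98% identity. *Cdc6*, which loads the helicase, *Cdc45* and *Gins2*, which activate it, had log2 fold changes of 0.38, 0.03 and 0.28 (0.22, 0.02 and 0.09 without *FRAIL1* muscle 5). *Gins2* shares 67.3% of its exon bases with *Gse1* on the opposite strand, so its value is uncertain if reads were counted without strand.

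Of the regulators of entry into S phase, *Ccne1* (cyclin E1) had the largest S-phase estimate but a wide spread. It was at 0.517 to 1.6 CPM in Control and 0.809 to 2.6 in *FRAIL1* muscles (log2 fold change 0.82, SE 0.311; edgeR adjusted p = 0.107, and 0.59 without *FRAIL1* muscle 5). Its paralog *Ccne2* (cyclin E2) was at 1.47 to 2.34 and 1.23 to 2.22 CPM, a log2 fold change of -0.11 (SE 0.165; edgeR adjusted p = 0.718), with its lowest value in *FRAIL1* muscle 5 and an estimate of -0.02 without it. *Ccne2* shares 17.4% of its exon bases with *Ints8* on the opposite strand. *E2f1*, an activator E2F, was at 2.13 to 2.62 CPM in Control and 2.02 to 5.24 in *FRAIL1* muscles. Muscles 1, 4 and 5 were above all Controls and muscle 6 was below them, for a log2 fold change of 0.51 (SE 0.200; edgeR adjusted p = 0.119, and 0.32 without *FRAIL1* muscle 5).

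*Cdk1*, the kinase that drives entry into mitosis, had the largest estimate among the 40 genes over all 12 muscles, although with the block it was at 0.79 and *Ccne1* at 0.81. It was at 1.8 to 2.64 CPM (median 1.94) in Control muscles and 2.43 to 6.49 (median 3.18) in *FRAIL1* muscles. Of the *FRAIL1* muscles 5 were above all Controls, and muscle 5 stood well above the next. The means were 2.04 ± 0.326 (SD, n = 6) and 3.68 ± 1.44 (SD, n = 6), a log2 fold change of 0.85 (SE 0.210; edgeR adjusted p = 0.0313), and 0.61 without *FRAIL1* muscle 5 (edgeR adjusted p = 0.0242). The call was lost when Control muscle 1, 2, 3, 5 or 6 or *FRAIL1* muscle 1 was left out, with adjusted p between 0.0557 and 0.0683.

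The cyclin partners of *Cdk1*, and *Foxm1*, whose product helps to switch on mitosis genes, lay in the same direction without being called. *Ccnb2* (cyclin B2) was at 1.64 to 2.57 CPM (median 1.94) in Control and 2.07 to 5.68 (median 2.91) in *FRAIL1* muscles (log2 fold change 0.71, SE 0.214; edgeR adjusted p = 0.0572, and 0.0485 with the block), and 0.48 without *FRAIL1* muscle 5. *Ccna2* (cyclin A2), *Ccnb1* (cyclin B1) and *Foxm1* had log2 fold changes of 0.54, 0.28 and 0.55, and of 0.24, 0.06 and 0.31 without *FRAIL1* muscle 5. *Ccna2* shares 12.5% of its exon bases with *Exosc9* on the opposite strand. For *Ccnb1*, pseudogenes match 51.9% of the transcript, so some of its reads may be theirs or have been dropped as not unique.

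*Kif11*, the kinesin that pushes spindle poles apart, was at 2.41 to 4.12 CPM (median 3.51) in Control muscles and 3.91 to 9.01 (median 5.0) in *FRAIL1* muscles. Only *FRAIL1* muscle 2 lay within the Control range, and all 6 were above their same-numbered Control. The means were 3.33 ± 0.668 (SD, n = 6) and 5.46 ± 1.81 (SD, n = 6), a log2 fold change of 0.71 (SE 0.192; edgeR adjusted p = 0.0431), and 0.50 without *FRAIL1* muscle 5 (edgeR adjusted p = 0.0483). The call was lost when any 1 Control muscle or *FRAIL1* muscle 1, 4 or 6 was left out, with adjusted p between 0.0533 and 0.0814. The other genes of the spindle and its midzone, *Kif20a*, *Kif23*, *Prc1* and *Nusap1*, had log2 fold changes of 0.52, 0.65, 0.48 and 0.35 (0.31, 0.41, 0.15 and 0.18 without *FRAIL1* muscle 5). *Kif20a* and *Prc1* share 29.3% and 11.1% of their exon bases with genes on the opposite strand, *Cdc23* and *Rccd1*. *Prc1*, which bundles microtubules in the midzone, was at 3.79 to 4.64 CPM in 5 *FRAIL1* muscles and 10.6 in muscle 5.

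*Cenpf*, a large protein of the kinetochore, was at 1.8 to 2.28 CPM (median 1.97) in Control muscles and 2.24 to 4.39 (median 2.94) in *FRAIL1* muscles. *FRAIL1* muscle 6 alone lay within the Control range. The means were 2.03 ± 0.182 (SD, n = 6) and 3.07 ± 0.805 (SD, n = 6), a log2 fold change of 0.60 (SE 0.164; edgeR adjusted p = 0.0454). The call was lost without *FRAIL1* muscle 5 (0.46; edgeR adjusted p = 0.0703), without *FRAIL1* muscle 1 or 2 and without any 1 Control muscle, with adjusted p between 0.057 and 0.0882. *Cenpa*, the histone H3 variant of centromeres, and *Cenpe*, a kinetochore motor, had log2 fold changes of 0.36 and 0.34 (0.28 and 0.20 without *FRAIL1* muscle 5), neither called.

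*Mki67*, the Ki-67 protein that coats mitotic chromosomes and is the usual marker of dividing cells, was at 6.6 to 8.82 CPM (median 8.56) in Control muscles and 7.86 to 21.0 (median 9.82) in *FRAIL1* muscles. It was higher in 6 of 6 same-numbered pairs, but muscle 5 stood far above the rest: the other 5 *FRAIL1* muscles were at 7.86 to 12 CPM. The log2 fold change was 0.53 (SE 0.211; edgeR adjusted p = 0.126, and 0.0443 with the block), and 0.27 without *FRAIL1* muscle 5 (edgeR adjusted p = 0.186). *Top2a*, the topoisomerase that untangles sister chromatids, was at 7.99 to 10.6 CPM (median 9.74) in Control and 9.9 to 17.7 (median 12.1) in *FRAIL1* muscles (log2 fold change 0.41, SE 0.129; edgeR adjusted p = 0.0657, and 0.0206 with the block), and 0.28 without *FRAIL1* muscle 5.

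The 4 genes of the spindle checkpoint and the anaphase-promoting complex, *Bub1*, *Bub1b*, *Cdc20* and *Ube2c*, had log2 fold changes of 0.53, 0.49, 0.52 and 0.66, and of 0.33, 0.33, 0.30 and 0.41 without *FRAIL1* muscle 5. None was called in the test without the block, and *Bub1b* was called with it (edgeR adjusted p = 0.0321). *Ube2c*, the ubiquitin-conjugating enzyme of that complex, was at 1.51 to 2.79 CPM in Control and 2.09 to 6.23 in *FRAIL1* muscles, higher in 6 of 6 same-numbered pairs (SE 0.240; edgeR adjusted p = 0.0978). It shares 22.8% of its exon bases with *Tnnc2*, the abundant fast troponin C gene on the opposite strand, so without strand part of its counts could be troponin reads.

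*Aurka*, the Aurora kinase that matures centrosomes and builds the spindle, was the exception. It was at 7.83, 6.37, 7.55, 8.83, 7.71 and 6.82 CPM in Control muscles 1 to 6 and at 6.26, 5.63, 5.43, 5.66, 5.52 and 5.43 CPM in *FRAIL1* muscles 1 to 6. The highest *FRAIL1* value was below the lowest Control value, and it was the only member with groups apart in this direction (1 of 40, against 1.77% of all genes tested, and also 1 of 40 without muscle 5, against 1.83%). The means were 7.52 ± 0.856 (SD, n = 6) and 5.66 ± 0.311 (SD, n = 6), a log2 fold change of -0.41 (SE 0.0898; edgeR adjusted p = 0.0196), and -0.41 without *FRAIL1* muscle 5 (edgeR adjusted p = 0.0212). It was called under all 24 alternatives run, with adjusted p between 0.000508 and 0.0474.

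*Aurkb*, the Aurora kinase of the chromosomal passenger complex, was not called, at 1.8 to 2.48 CPM in Control and 1.78 to 3.91 in *FRAIL1* muscles (log2 fold change 0.23, SE 0.180; edgeR adjusted p = 0.419, and 0.07 without *FRAIL1* muscle 5). The ratio of *Aurkb* to *Aurka* within a muscle was 0.292 ± 0.0568 (SD, n = 6) in Control and 0.451 ± 0.136 (SD, n = 6) in *FRAIL1* muscles, at 0.708 in muscle 5 and 0.328 to 0.463 in the others. The Control range, 0.225 to 0.387, overlapped with these. This ratio restates the estimates of *Aurkb* and *Aurka* and adds no separate evidence. *Birc5* (survivin), a partner of *Aurkb*, had a log2 fold change of 0.64 (SE 0.197; edgeR adjusted p = 0.0614, and 0.0318 with the block), and *Plk1*, the Polo kinase, one of 0.56 (SE 0.257; edgeR adjusted p = 0.170), which were 0.44 and 0.28 without *FRAIL1* muscle 5. Per kilobase of exon, *Aurka* stood high among Control levels, at 2.97 CPM per kb, after *Pcna* (9.45) and *Rrm1* (3.77) and beside *Mcm7* (2.9), while *Aurkb* was at 0.736, *Mki67* at 0.795, *Cdk1* at 0.413 and *Cenpf*, the lowest, at 0.132. Per kilobase of the longest mRNA, *Aurka* (3.95) was sixth, below *Pcna* (14.9), *Rrm1* (10.4), *Mcm7* (4.34), *Tk1* (4.15) and *Mcm2* (4.05). *Mcm7* shares 12.6% of its exon bases with other genes.

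**Figure D3:**
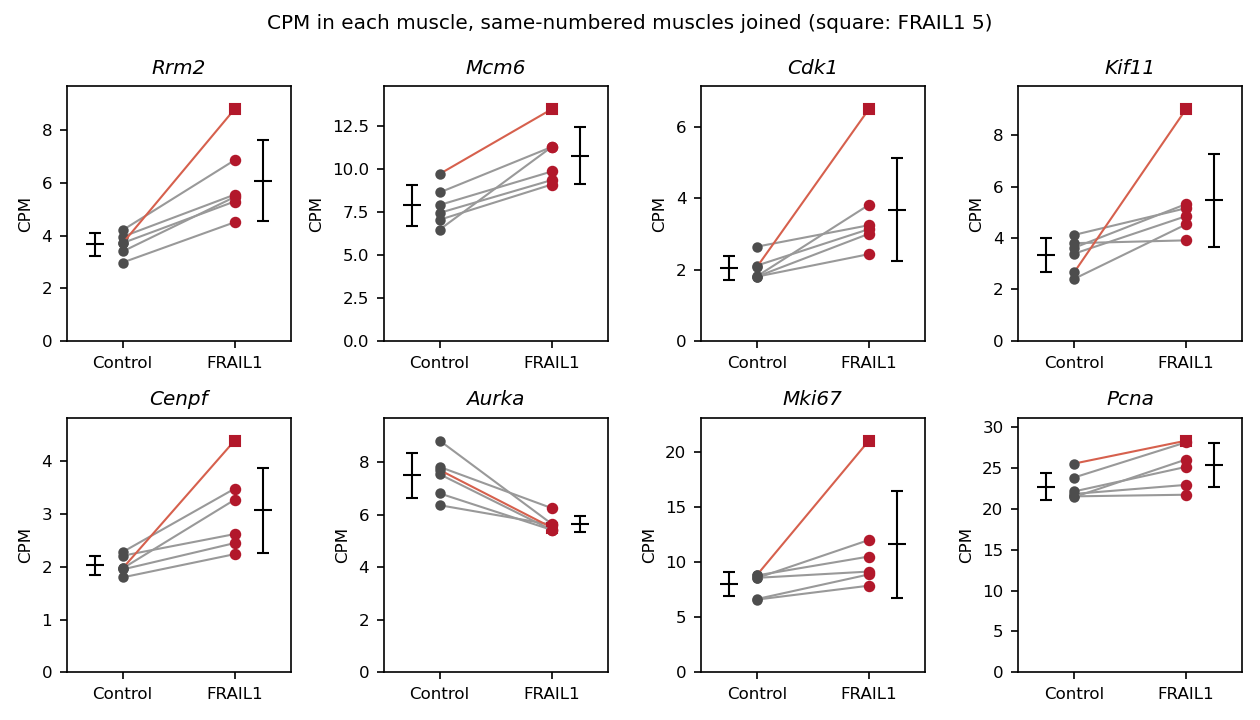
CPM of the 6 called genes and of *Mki67* and *Pcna* in each muscle (y axes from 0), with same-numbered Control and *FRAIL1* muscles joined by lines, *FRAIL1* muscle 5 as a square, and the mean ± SD of each group (n = 6) at the sides. *Rrm2* and *Aurka* are the panels in which the groups do not overlap, and muscle 5 is the highest point in each panel except that of *Aurka*.

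Same-numbered muscles showed how the difference was spread over the mice. Of the 40 genes, 13 were higher in the *FRAIL1* than in the Control muscle in 6 of 6 pairs (32.5%, against 11.5% of all genes tested): *Mcm3*, *Mcm6*, *Pcna*, *Rrm2*, *Cdk1*, *Foxm1*, *Bub1b*, *Ube2c*, *Cenpf*, *Kif11*, *Kif20a*, *Mki67* and *Top2a*. *Aurka* was lower in 6 of 6 (1 of 40, against 11.7% of all genes tested). By pair, 35, 20, 30, 27, 37 and 33 of the 40 genes were higher in *FRAIL1* muscles 1 to 6 than in Control muscles 1 to 6. Among the 40 genes, pair 2 was thus even, while in the others more genes were higher than lower. The matching share of all genes tested was not computed for single pairs.

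*FRAIL1* muscle 5 had the highest CPM of all 12 muscles for 35 of the 40 genes (against 23.3% of all genes tested), 13 of 17 S-phase and 22 of 23 mitosis genes. The exceptions were *Mcm2*, *Cdc45*, *Rrm1*, *Ccne2* and *Aurka*. The mean of log2 (CPM + 0.1) over the mitosis genes, relative to the Control mean, was 1.17 in this muscle, 0.46, 0.25, 0.13, 0.37 and 0.22 in *FRAIL1* muscles 1, 2, 3, 4 and 6, and -0.22 to 0.23 in Control muscles. Over the S-phase genes it was 0.57 in muscle 5, 0.27, 0.07, 0.09, 0.26 and 0.15 in the others, and -0.12 to 0.19 in Control muscles. Without muscle 5, *FRAIL1* muscles 1, 2 and 4 were above the Control range for mitosis genes and muscles 1 and 4 for S-phase genes. Within Control, muscles 3 and 6 held the lowest CPM of all 12 for 13 and 6 of the 23 mitosis genes.

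Lists of other cell cycle genes, none of them a member, had medians in the same order. Of 42 other mitosis genes, 41 had a fold change above 0 and the median log2 fold change was 0.40 (0.24 without *FRAIL1* muscle 5). *Ttk*, a checkpoint kinase, and *Spc25*, a kinetochore protein, were called higher (1.08, edgeR adjusted p = 0.0415, and 0.87, edgeR adjusted p = 0.0489), a share of 4.76%, against 4.43% of all genes tested. Neither was called without muscle 5 (0.96 and 0.58, edgeR adjusted p = 0.069 and 0.0694). *Spc25* was also not called with the block (edgeR adjusted p = 0.0617). The exception was *Pttg1* (securin), at -0.30 (edgeR adjusted p = 0.0987). Of 40 other S-phase genes, edgeR called 0, 12 had an unadjusted p under 0.05 (30%, near the 27.7% of all genes, with 9 higher and 3 lower), 31 had a fold change above 0 and the median was 0.17 (0.09 without muscle 5). With the block, 6 other mitosis genes (14.3%) and 3 other S-phase genes (7.5%) were called, all higher, against 7.48% of all genes, so the S-phase share was that of all genes.

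Of 24 genes of G1 cyclins, their kinases, Rb and the E2F and DREAM factors, 3 rose (12.5%, against 4.43% of all genes tested) and 1 fell (4.17%, against 1.85%). *E2f2*, an activator E2F, was at 8.05 to 9.22 CPM in Control and 16.9 to 32.0 in *FRAIL1* muscles, without overlap (log2 fold change 1.29, SE 0.138; edgeR adjusted p = 0.000468, and 1.12 without *FRAIL1* muscle 5). *Ccnd3* (cyclin D3) rose by 0.40 (SE 0.112; edgeR adjusted p = 0.0470) and *Lin37*, a subunit of MuvB, by 0.33 (SE 0.0919; edgeR adjusted p = 0.0469), the latter not called without muscle 5 (edgeR adjusted p = 0.0771). *E2f6*, a repressor E2F, fell, from 164 ± 6.48 CPM (SD, n = 6) to 118 ± 21.3 (SD, n = 6), a log2 fold change of -0.47 (SE 0.104; edgeR adjusted p = 0.0200). With the block, 8 genes of the list were called (33.3%, against 14.1% of all genes), 6 higher and 2 lower.

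Of 20 p53 targets and CDK inhibitors, 2 rose (10%, against 4.43% of all genes tested) and none fell in that test. With the block *Ccng1*, a p53 target, fell besides (3 called, 15%, near the 14.1% of all genes). Without *FRAIL1* muscle 5, *Cdkn1c*, a CDK inhibitor, was called besides (0.49, edgeR adjusted p = 0.00728, against 0.94 and 0.0811 with it). *Cdkn1a* (p21), which arrests the cycle and is also induced as myoblasts differentiate, was at 29.1 to 64.8 CPM in Control and 72.7 to 132 in *FRAIL1* muscles, without overlap (log2 fold change 1.02, SE 0.202; edgeR adjusted p = 0.0177), but was not called without both muscles numbered 5 (edgeR adjusted p = 0.0644). *Cdkn2d* (p19 INK4d) was at 15.6 to 17.8 and 18.8 to 27.8 CPM (log2 fold change 0.46, SE 0.0824; edgeR adjusted p = 0.00891). The median over the list was 0.11, and *Mdm2*, a p53 target, was at 0.04 (edgeR adjusted p = 0.825).

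Markers of several cell types moved beside the proliferation genes, and their part in the result was not tested. Of 13 satellite cell and myoblast markers, 5 rose (38.5%, against 4.43% of all genes tested), with log2 fold changes of 1.46 to 2.16. These were *Myog*, *Mymk*, *Mymx*, *Myh3* and *Myh8*, which belong to differentiating and fusing myoblasts and new fibers. With the block 8 were called (61.5%, against 14.1% of all genes). The satellite cell markers *Pax7* and *Myf5* were at 0.56 and 0.72 (edgeR adjusted p = 0.0634 and 0.0645, and 0.0345 and 0.0486 with the block). The summed CPM of the list was 236 to 288 in Control and 403 to 1640 in *FRAIL1* muscles, and its mean log2 level relative to Control was highest in *FRAIL1* muscle 5 (1.39, against 0.49 to 0.88 in the other *FRAIL1* muscles). The largest terms of that sum were *Myh8* (means 98.3 CPM in Control and 353 in *FRAIL1* muscles) and *Myh3* (50.9 and 228), while *Pax7* was at 2.4 and 3.54. Of the 13 estimates 12 were above 0, *Sdc4* was at 0.0 and the exception was *Chrdl2* at -0.24. The 12 fibro-adipogenic markers summed to 1400 to 2530 CPM in Control and 2610 to 6760 in *FRAIL1* muscles, again with the highest level in muscle 5 (1.05, against 0.21 to 0.39). The largest terms of this sum were the collagens *Col3a1*, *Col1a1* and *Col1a2*. *Postn* and *Col1a2* were called (1.60 and 0.82, edgeR adjusted p = 0.0469 and 0.0472), 16.7% of the list against 4.43% of all genes called higher. With the block they were not (edgeR adjusted p = 0.109 and 0.0642). Without muscle 5 they were at 1.02 and 0.59 (edgeR adjusted p = 0.0308 and 0.0502). *Col1a1* was called in that fit (0.68, edgeR adjusted p = 0.0309), so 2 of the list were called higher there (16.7%, against 3.69% of all genes). Of the 12 estimates 9 were above 0 and 3 below, and without muscle 5, 7 and 5. *Ly6a*, *Pi16* and *Dpp4* were at -0.18, -0.14 and -0.11, and *Dcn* and *Cd34* at 0.02 and 0.1.

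Among *FRAIL1* muscles, macrophage markers were highest in muscles 4 and 1 and not in muscle 5. Leaving muscle 5 aside, muscles 1 and 4 were highest and muscle 3 lowest for both macrophage markers and mitosis genes. Of 12 macrophage markers, edgeR called 0, and 7 had an unadjusted p under 0.05, all higher (58.3%, against 15.2% of all genes tested). With the block 6 were called (50%, against 14.1% of all genes). They summed to 259 to 404 CPM in Control and 324 to 822 in *FRAIL1* muscles, and their mean log2 level was 0.95 in muscle 4, 0.93 in muscle 1, 0.61 in muscle 5, 0.25 in muscle 6, 0.15 in muscle 2 and -0.10 in muscle 3. Of 9 endothelial markers, 3 fell (33.3%, against 1.85% of all genes tested), *Tek*, *Flt1* and *Vwf* (log2 fold changes -0.41, -0.48 and -0.25). With the block 4 were called (44.4%, against 14.1% of all genes). *Flt1* and *Vwf* lost the call in 7 and 10 of the 12 fits with 1 muscle left out. All 9 estimates were below 0, and they summed to 478 to 541 CPM in Control and 375 to 474 in *FRAIL1* muscles. Of 9 Schwann cell markers, edgeR called 0 (3 with an unadjusted p under 0.05, against 27.7% of all genes, and 1 called with the block, 11.1% against 14.1%). They summed to 66.1 to 121 CPM in Control and 55.5 to 88.3 in *FRAIL1* muscles. Of 9 lymphocyte markers tested, edgeR called 0 (0 with an unadjusted p under 0.05, and 1 called with the block, 11.1% against 14.1% of all genes). Of 4 erythroid and 2 neutrophil markers tested it called 0 (0 with an unadjusted p under 0.05). *Ckm* was the 1 muscle fiber marker called, lower (-0.38, edgeR adjusted p = 0.0482), 8.33% of the list against 1.85% of all genes tested. With the block 2 were called (16.7%, against 6.62% of all genes called lower) and without *FRAIL1* muscle 5, 3 (25%, against 2.52%), all lower.

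**Figure D4:**
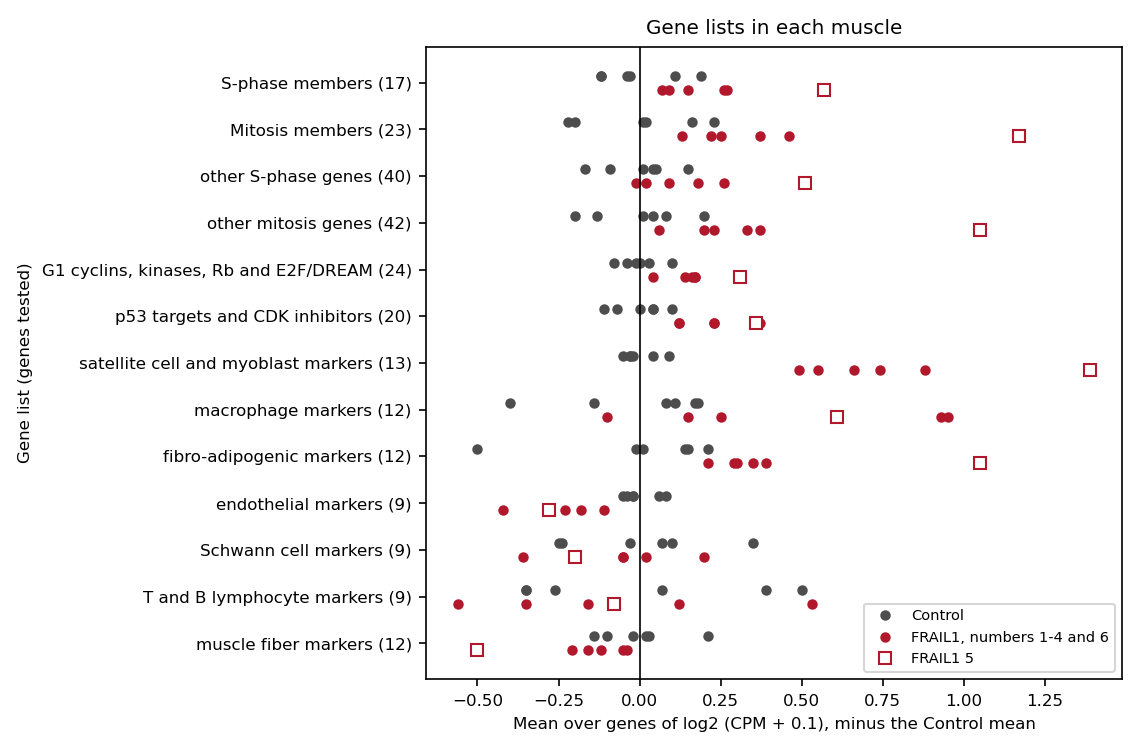
Mean over the genes of a list of log2 (CPM + 0.1), relative to the mean of the 6 Control muscles, for each Control muscle (grey), *FRAIL1* muscles 1 to 4 and 6 (red) and *FRAIL1* muscle 5 (open square), with the number of genes tested in brackets. Muscle 5 is highest for S-phase, mitosis, satellite cell and myoblast, and fibro-adipogenic genes, not for macrophage genes, and all 6 *FRAIL1* muscles are below the Controls for endothelial genes.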

How the data were processed

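RNA-seq counts of 12 TA muscles were analysed. Per the labels and the study's methods, poly(A) RNA was sequenced, reads were trimmed with Trimmomatic and mapped to mm10 with STAR 2.7.8a, and the authors deposited raw counts of uniquely mapped reads per gene from featureCounts 2.0.1, without normalization. The strand setting of that counting is not given in the sources used here. Entrez Gene IDs were matched to RefSeq symbols (25275 of 27179; the rest held 0.28% of counts). filterByExpr left 15502 genes to test. TMM gave the scaling, and edgeR 4.0.16 in R 4.3.3 gave the main test, a quasi-likelihood F test with robust dispersions and no term for the mouse (the study's methods state none). Adjusted p-values are Benjamini-Hochberg over all genes tested, with a threshold of 0.05. SE is the fold change over the square root of the F statistic. CPM use TMM-scaled library sizes. No pair of libraries in a group was alike within sampling noise. Shared exon bases and transcript matches (BLAST 2.17.0, at least 98% identity over 100 bases) were taken from GENCODE M21. The alternatives were a replicate block, each muscle left out, both muscles numbered 5 left out, other scalings and filters, a fit that was not robust, DESeq2 1.42.0 and limma 3.58.1 voom.

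The genes, the lists and the tests were chosen with earlier results of these data known. Full values are given for called genes, *Mki67*, *Top2a*, *Cdk1*, *Pcna* and *Mcm2*, and the 4 largest rises and falls among S-phase and among mitosis genes (only *Aurka* fell among the latter). Of the other lists, up to 5 called genes by lowest adjusted p and *Cdkn1a* are named. *Pttg1*, *Mdm2*, *Ccng1*, *Cdkn1c*, *Pax7*, *Myf5*, *Sdc4*, *Chrdl2*, *Col1a1*, *Col3a1*, *Ly6a*, *Pi16*, *Dpp4*, *Dcn* and *Cd34* were named after their values were seen.

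The series design gives both TA muscles of each mouse, and the labels number muscles 1 to 6 in both groups without stating that the number marks the mouse. Deviations from the group means correlated between same-numbered muscles at 0.254, 0.162, 0.282, 0.263, 0.0547 and 0.185 for numbers 1 to 6 (mean 0.2, against -0.04 between different numbers), and of the 720 possible pairings 1, that by number, reached this mean. Number 5 had the weakest correlation. The numbers were taken as the mice.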

Additional observations from a re-analysis of the deposited data

Results flagged for a closer look

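Within each group of 6 muscles, the gap between the highest or lowest CPM and its neighbour was compared with the range of the group (Dixon's test at 95%), for 40 genes in both groups. Of 80 groups, 17 held a value apart, where chance alone would give about 1 in 20 groups, and the genes are not independent. In 15 of the 17 the value was the highest of the *FRAIL1* muscles and belonged to muscle 5. These were 21.0 CPM of *Mki67*, 10.6 of *Prc1*, 9.91 of *Mcm5*, 9.01 of *Kif11*, 7.87 of *Ccna2*, 6.49 of *Cdk1*, 6.23 of *Ube2c*, 5.98 of *Kif20a*, 5.95 of *Plk1*, 5.87 of *Kif23*, 5.68 of *Ccnb2*, 5.12 of *Birc5*, 5.03 of *Foxm1*, 4.39 of *Cenpe* and 2.19 of *Ccnb1*. Of these genes *Mcm5* alone is an S-phase gene.

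The other values apart were 2.64 CPM of *Cdk1* in Control muscle 4, the highest of its group, and 6.26 CPM of *Aurka* in *FRAIL1* muscle 1, the highest of a group whose other values were 5.43 to 5.66. The value of *Aurka* in *FRAIL1* muscle 1 was below the lowest Control value, 6.37.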

How the results depend on the processing

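The number of called genes moved more than their direction. Over all genes tested, 974 genes were called, and 2186 with the replicate block, 2305 with the block and without both muscles numbered 5, 2211 with DESeq2, 2875 with DESeq2 and the block, 1836 with limma voom, and 364 to 2110 with 1 muscle left out (the highest without *FRAIL1* muscle 3, the lowest without *FRAIL1* muscle 1). Of the 40 genes, 6 were called, and 12 with the replicate block, 12 with DESeq2, 16 with DESeq2 and the block, and 2 to 12 with 1 muscle left out: 2 without Control muscle 1, 2, 3 or 6 or *FRAIL1* muscle 1, 3 without Control muscle 4 or 5, and 12 without *FRAIL1* muscle 3. Calls over all genes moved in the same fits, from 974 to 400, 413, 403 and 537 without Control muscle 1, 2, 3 or 6. They were 364 without *FRAIL1* muscle 1, 500 and 527 without Control muscle 4 or 5, and 2110 without *FRAIL1* muscle 3. Those called higher were 5, and 11 with the replicate block, 11 with DESeq2, 15 with DESeq2 and the block, 3 without both muscles numbered 5, and 1 to 11 with 1 muscle left out. Over all genes, those called higher were 687, 1159, 1272, 1476, 480 and 314 to 1228 in the same fits. The fits with 1 higher call left out Control muscle 1, 2, 3 or 6 or *FRAIL1* muscle 1. Over all genes these fits called 333, 347, 330, 413 and 314 higher, of 15596 to 15651 tested. There the share of the 40 genes called higher was near that of all genes. The median log2 fold change of S-phase genes, 0.27, was 0.11 without both muscles numbered 5, 0.10 with the block besides, 0.12 with limma voom, and 0.11 to 0.32 with 1 muscle left out, the lowest without *FRAIL1* muscle 5. That of mitosis genes, 0.53, was 0.31 without both muscles numbered 5, 0.32 with the block besides, 0.35 with limma voom, and 0.30 to 0.60 with 1 muscle left out, the lowest again without *FRAIL1* muscle 5. The cause of these shifts was not tested. Among the 40 genes, the replicate block changed no other call than those given. Of the genes named from other lists, *E2f2*, *E2f6*, *Cdkn2d*, *Cdkn1a*, *Mymk*, *Mymx*, *Myog*, *Myh3* and *Tek* were called with any 1 muscle left out, *Myh8* was not called without Control muscle 2 or 3, and *Ttk*, *Spc25*, *Lin37*, *Ccnd3*, *Postn*, *Col1a2*, *Flt1*, *Vwf* and *Ckm* each lost the call in 7 to 10 of the 12 fits with 1 muscle left out.

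Signs reversed only near 0. *Mcm2* lay between -0.03 and 0.033 with 1 muscle left out, at 0.0085, 0.014, 0.033 and 0.0079 without Control muscle 2 or 6 or *FRAIL1* muscle 3 or 4, and at 0.0013 with upper-quartile scaling. *Cdc45* was at -0.0075 without both muscles numbered 5 and at -0.0004 with the block besides. *Tk1* lay between -0.074 and 0.017 with 1 muscle left out, above 0 without Control muscle 2, 4 or 5 or *FRAIL1* muscle 2, 3 or 6. *Cdkn1a* was not called without both muscles numbered 5 (edgeR adjusted p = 0.0644, and 0.109 with the block). With the window from 100 bases before the start, the E2F share was 21.4% of S-phase genes (35.7% in the whole window), 0% of mitosis genes, 2.11% of genes tested and 1.26% of all promoters, and the CHR share 14.3% of S-phase genes, 5.4% of genes tested and 8.68% of all promoters. *Ccne1* and *Bub1* held as few as 22 counts in a muscle and had SEs of 0.311 and 0.331. Their estimates were imprecise, and log2 fold changes of 0.82 and 0.53 were not called.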
